A study of Mus musculus with 30 samples.

Results

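Cell surface receptors were followed in the circulating leukocytes of DBA/2 mice, an inbred strain, after cyclophosphamide, an alkylating cytotoxic drug that kills dividing blood cell precursors. The genes were chosen by symbol: CD antigens, integrin chains, C-type lectins, killer cell lectin-like receptors, Fc receptors, Siglecs, leukocyte immunoglobulin-like receptors and selectins. The array held 137 such genes on 141 probes, and 8 further genes of these families were left out by name. Of the 137, 62 had enough values to be tested (at least 2 values at day 5 and 3 in each of the other groups), among 6515 tested features in all. The other 75 had too few values, and 24 of them had none in any sample.

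The groups were 4 blood samples of untreated DBA/2 mice, and 4, 4 and 3 samples of DBA/2 mice drawn 1, 2 and 5 days after an intraperitoneal injection of 83 mg per kg cyclophosphamide. The labels name the controls as untreated and mention no vehicle injection, and the sources used here give neither the age of the mice nor how many stand behind a sample. Every array set the Cy5 signal of a blood sample against the Cy3 signal of pooled DBA/2 bone marrow. Each value below is therefore a logarithm of the ratio of blood over marrow, called the log ratio, and each change is a difference of 2 groups' mean log ratios, in which a constant reference drops out. The cell type label calls the marrow pool untreated, while its treatment label names cyclophosphamide. Apart from a description of the ratios in untreated blood, values are only compared between blood groups. The sources used here do not give the log base. Values run from -4.70 to 5.76, which a log10 ratio of 16-bit signals cannot reach, and base e cannot be told apart from base 2. The values were taken as log2, and every fold below assumes that base.

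CD antigens are surface proteins by which leukocytes are typed. Integrins are pairs of an alpha and a beta chain that hold leukocytes to vessel walls and matrix once activated from inside the cell. C-type lectin receptors bind ligands such as sugars or, for many killer cell lectin-like receptors, class I and class I-like molecules. Most signal through kinases such as Syk or inhibitory phosphatases. In mice the genes of the killer cell lectin-like receptors and several C-type lectins lie side by side in the natural killer gene complex. Each cell type carries its own set of these receptors, and in bulk blood samples fewer cells of a type and less RNA per cell cannot be told apart.

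The markers of the blood cell types themselves moved. Of 6 tested neutrophil markers all 6 were higher at day 2 than in untreated blood (limma, adjusted p under 0.05), and their mean log ratio per sample ran from 0.53 to 1.34 at day 2 and from -0.59 to -0.22 in untreated samples. All 6 tested monocyte markers were lower, at -0.26 to -0.17 at day 2 and 0.54 to 1.11 in untreated samples, and 4 of them were lower at day 1 already. At day 1, 4 of 6 tested platelet markers were higher, with sample means of 3.33 to 3.65 at day 1 and 2.00 to 2.18 in untreated samples. Of 3 tested B cell markers Fcmr was lower than in untreated blood at days 1, 2 and 5 (-0.75, -0.69 and -1.47) and Ms4a1 at day 5 (-1.56, adjusted p = 0.0036). Of the 9 T cell markers 1 was tested, and Cd3d, Cd3e, Cd3g, Cd79a and Cd79b, which define T and B cells, had too few values. Samples of a group correlated with r between 0.651 and 0.913 across tested features, and replicate 3 of day 5 stood apart in several members described below.

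In untreated blood, 46 of the 62 genes had a mean log ratio above 0 and 16 at or below it. Their median was 0.21, against -0.02 over all tested features. The highest were Clec4e, the Mincle receptor for microbial glycolipids (2.02 ± 0.80, SD, n = 4), Clec7a, the beta-glucan receptor dectin-1 (1.86 ± 0.34), and Cd53, a tetraspanin of leukocytes (1.62 ± 0.28). The SD of Clec4e was larger than the gaps between these 3. The lowest were Clec4a2, an inhibitory lectin of myeloid cells (-1.08 ± 0.40), Itgb2l, an integrin beta chain resembling beta 2 (-0.91 ± 0.62, n = 3), and Selenoo, a mitochondrial selenoprotein (-0.77 ± 0.12). These ratios compare blood with marrow for 1 gene at a time and give no order of transcript abundance between genes. They depend on a marrow pool whose labels disagree on treatment. With blood always in Cy5, they also hold any dye effect.

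**Figure D1:**
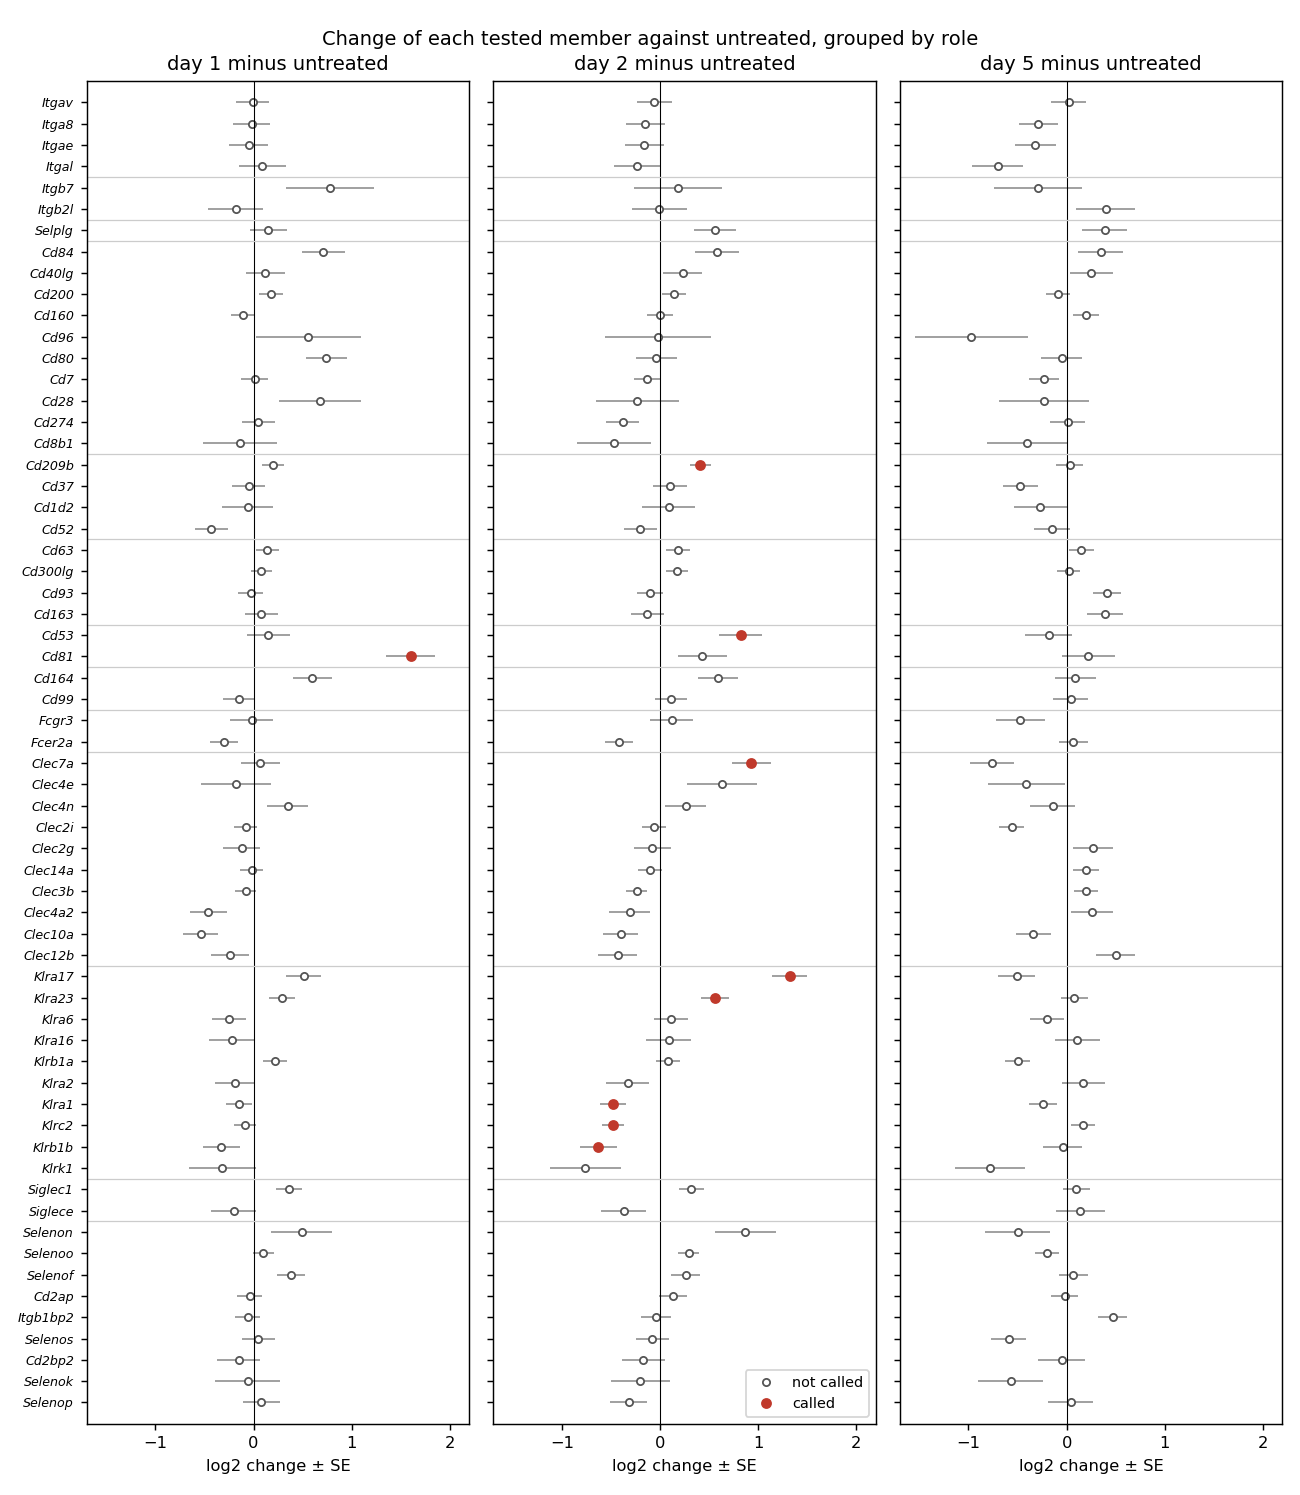
Change of each of the 62 tested genes against untreated (log2, mean difference ± SE from the limma fit), with day 1, day 2 and day 5 in 3 panels and genes grouped by role. Filled points passed the test: 1 at day 1, 8 at day 2 and 0 at day 5.

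One day after the drug the tetraspanin Cd81 was higher in blood leukocytes, and no other gene of the 62 passed the test. Cd81, which organises membrane domains on many kinds of leukocytes, had log ratios of 1.82, 2.04, 1.34 and 1.94 in the day 1 samples and 0.15, -0.19, 0.62 and 0.15 in the untreated samples. All 4 day 1 samples lay above all untreated ones. The change was 1.60 ± 0.25 (SE, limma adjusted p = 0.0051), a 3.03-fold rise, and it passed the test in all 25 alternatives (adjusted p 0.0014 to 0.026). At day 2 Cd81 had log ratios of -0.11, 0.39, 1.13 and 1.03, and at day 5 of 0.58, 0.52 and 0.09, which overlapped the untreated samples. The difference of day 2 from day 1 was -1.17 ± 0.25 (adjusted p = 0.04).

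This was 1 call among 62 genes (1.61%), against 4.6% of all tested features called at day 1 and 2.29% called higher. The median change of the 62 was -0.02, against 0.03 over all features, and 12 had an unadjusted p under 0.05, against 1376 of all 6515 features. In the same samples 4 platelet markers rose and 4 monocyte markers and Fcmr fell, and their part in the Cd81 values was not tested. Cd80, the B7-1 ligand of Cd28 on antigen-presenting cells, had log ratios of 0.66, 0.96 and 0.82 at day 1 and 0.08, -0.04 and 0.18 in untreated samples, each in the 3 samples with a value. Its groups did not overlap, but the change of 0.74 ± 0.21 did not pass (adjusted p = 0.061). Over all 4 groups Cd80 did pass the F test (adjusted p = 0.03), its means being 0.07 in untreated blood and 0.81, 0.03 and 0.02 after 1, 2 and 5 days. Cd164, a sialomucin of blood cells and their precursors, had a day 1 change of 0.60 ± 0.20 (adjusted p = 0.09), and Siglec1, the macrophage receptor sialoadhesin, 0.36 ± 0.13 (adjusted p = 0.12). Without day 5 replicate 3, which enters the shared estimate of spread, 4 genes were called at day 1, and Cd164 was among them (adjusted p = 0.011). That fit called 422 of all 6515 features at day 1, against 300 with every sample.

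At day 2, 5 genes were higher and 3 lower than in untreated blood, and 7 of the 8, all but Cd53, were lectin receptors. Klra17 and Clec7a led the rises together with Cd53, while Klrb1b, Klra1 and Klrc2, receptors known from natural killer cells, were lower. The 8 calls made up 12.9% of the 62 genes, against 12.7% of all tested features. By direction the calls were 8.06% higher and 4.84% lower, against 4.83% and 7.84% of all features. The median change of the 62 was -0.03, against 0.06 over all features.

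Klra17 encodes Ly49Q, an inhibitory member of the Ly49 family known from myeloid cells and plasmacytoid dendritic cells. It had log ratios of 0.82, 0.85, 0.64 and 1.29 in the day 2 samples and -0.29, -0.28, -0.40 and -0.71 in the untreated samples. The groups were far apart, with every day 2 sample above 0 and every untreated sample below it. The change was 1.32 ± 0.18 (SE, limma adjusted p = 1.77e-04), a 2.5-fold rise, and it passed in all 25 alternatives. At day 1 Klra17 had values of 0.34, 0.01, 0.02 and 0.00, between the untreated and the day 2 samples, and a change against untreated of 0.51 ± 0.18 that did not pass (adjusted p = 0.11). Ly49 genes are close copies of each other that differ in number between mouse strains, and the probe sequences are not among the sources used here, so which copy a Klra probe reads in DBA/2 mice is not settled.

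Clec7a, on neutrophils and monocytes the receptor for fungal beta-glucan, had log ratios of 2.47, 2.60, 2.89 and 3.22 at day 2 and 1.98, 1.38, 2.19 and 1.90 in untreated samples. All day 2 samples were higher than all untreated ones. The change was 0.93 ± 0.20 (adjusted p = 0.0055), a 1.91-fold rise. With quantile normalization of the columns it was 0.44 and did not pass (adjusted p = 0.074), the only one of 25 alternatives that ended the call (adjusted p 0.0041 to 0.074).

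Cd53 organises membrane domains on leukocytes of most lineages. It had log ratios of 2.54, 2.32, 2.24 and 2.66 at day 2 and 1.64, 1.22, 1.75 and 1.87 in untreated samples, again without overlap. The change was 0.82 ± 0.22 (adjusted p = 0.025), and it was lost in 5 of 25 alternatives. Quantile normalization gave 0.42 (adjusted p = 0.20), and leaving out untreated replicate 2 or day 2 replicate 1 or 4 gave 0.69 to 0.79 (adjusted p 0.055 to 0.078). The neutrophil markers rose and the monocyte markers fell in these samples, and their part in the values of Klra17, Clec7a and Cd53 was not tested.

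**Figure D2:**
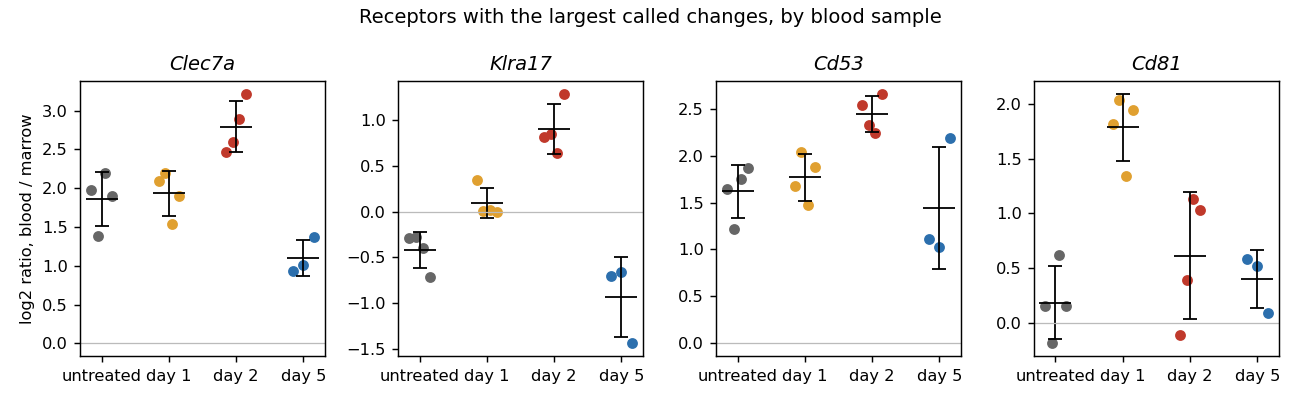
Log ratio of blood over marrow (log2) of Clec7a, Klra17, Cd53 and Cd81 in each blood sample of the untreated, day 1, day 2 and day 5 groups. Points are samples and bars are the mean ± SD. Clec7a, Klra17 and Cd53 were highest at day 2, with all 4 samples above all untreated ones, and Cd81 was highest at day 1.

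Klra23, a Ly49 receptor read by 2 probes, had log ratios of 0.60, 0.41 and 0.70 at day 2 and 0.20, 0.15, -0.18 and -0.14 in untreated samples. The groups did not overlap, and the change was 0.56 ± 0.14 (adjusted p = 0.016). Its probes differed in size, with changes of 0.68 (adjusted p = 0.016) and 0.39 (adjusted p = 0.21). The call was lost with technical replicate 2 alone (0.17, adjusted p = 0.59), without untreated replicate 4 (0.51) and without day 2 replicate 4 (0.50). Cd209b, the SIGN-R1 lectin of marginal zone macrophages, had values of 0.30, 0.49, 0.24 and 0.45 at day 2 and 0.14, -0.24, -0.19 and 0.12 in untreated samples. The separation was narrow, at a change of 0.41 ± 0.11 (adjusted p = 0.026). It was lost without untreated replicate 2 or 3 or day 2 replicate 2 or 4 (0.35 to 0.38, adjusted p 0.066 to 0.079).

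The lower genes were all killer cell lectin-like receptors. Klrc2, the NKG2C chain that pairs with CD94 and binds the class I-like molecule Qa-1, had log ratios of -0.25, -0.51, -0.01 and -0.29 at day 2 and 0.30, 0.13, 0.39 and 0.04 in untreated samples. Every day 2 sample was below 0 and every untreated one above it, at a change of -0.48 ± 0.11 (adjusted p = 0.011). With technical replicate 2 alone it was -0.26 (adjusted p = 0.24), the only alternative of 25 that ended the call. Klrb1b, the inhibitory receptor NKR-P1B, had values of -0.22, 0.00, -0.71 and -0.19 at day 2 and 0.08, 0.33, 0.31 and 0.69 in untreated samples. Its change was -0.63 ± 0.19 (adjusted p = 0.036) as the average of 2 probes, and the only probe with enough values by itself gave -0.69 (adjusted p = 0.012). Klra1, the inhibitory class I receptor Ly49A, had values of -0.10, -0.03, 0.06 and 0.23 at day 2 and 0.59, 0.28, 0.58 and 0.61 in untreated samples. Its change was -0.48 ± 0.13 (adjusted p = 0.027).

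The calls of Klrb1b and Klra1 were each lost when any 1 of 6 different samples was left out, with changes of the same sign. Klrb1b lost its call without untreated replicate 2, 3 or 4 or day 2 replicate 1, 3 or 4 (-0.66 to -0.49, adjusted p 0.054 to 0.12). Klra1 lost its call without untreated replicate 1, 3 or 4 or day 2 replicate 1, 2 or 3 (-0.48 to -0.43, adjusted p 0.054 to 0.08). Without day 2 replicate 4 the day as a whole had 4 calls, and without untreated replicate 3 or 4 it had 5. Of all 6515 features these fits called 672, 607 and 529, against 826 with every sample. Klrk1, the activating receptor NKG2D, had the lowest change of the 62 at day 2 (-0.76 ± 0.36) and did not pass. Of the 3 tested natural killer cell markers 1, Nkg7, was lower at day 2 (-0.69 ± 0.13, adjusted p = 0.0028), and the part of these cells in the receptor values was not tested.

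At day 5 none of the 62 genes passed the limma test against untreated blood, where 1.09% of all features did (0.261% higher and 0.829% lower). At an unadjusted p under 0.05 there were 11 of the 62 and 1134 of all 6515 features, and the 62 changes ran from -0.97 to 0.50 with a median of -0.03, against 0.00 over all features. The smallest p belonged to Clec2i, the ligand Clr-g of an NKR-P1 receptor, with log ratios of -0.28, -0.49 and -0.10 at day 5 and 0.22, 0.05, 0.44 and 0.38 in untreated samples. The groups did not overlap, and the change was -0.56 ± 0.13 (adjusted p = 0.055). Clec7a, with values of 0.93, 1.01 and 1.37 at day 5, lay below all untreated samples, at a change of -0.76 ± 0.22 (adjusted p = 0.11). Klrb1a, the activating receptor NKR-P1A, had a change of -0.50 ± 0.13 (adjusted p = 0.082) as the average of 2 probes. The only probe of Klrb1a with enough values by itself gave -0.32 (adjusted p = 0.17). In the same comparison Nkg7 was lower (-1.13 ± 0.14, adjusted p = 8.32e-04). The other tested natural killer markers, Ncr1 (-0.56, adjusted p = 0.40) and Eomes (-0.13, adjusted p = 0.78), did not pass. Of 3 tested B cell markers Fcmr and Ms4a1 were lower. The part of natural killer and B cells in these values was not tested.

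The day 5 count depended on replicate 3 of that day, and so did the count over all features. Of 6515 features 71 were called with this sample and 224 without it. Replicate 3 had a Cd53 log ratio of 2.19, against 1.11 and 1.03 in the other day 5 samples, and a Cd164 log ratio of 1.10, against -0.05 and 0.05. Without it 4 genes passed: Cd37, a tetraspanin mainly of B cells (-0.71, adjusted p = 0.04), Clec2g (0.60, adjusted p = 0.043), Clec2i (-0.66, adjusted p = 0.03) and Klrb1a (-0.59, adjusted p = 0.042). Without untreated replicate 2 there were 2 calls, and without day 2 replicate 2 or 3 there was 1. Quantile normalization gave 3 calls, Clec2i (-0.53), Clec7a (-1.13) and Selenos (-0.69). Of all 6515 features these fits called 74, 77, 63 and 111, in that order.

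Between day 2 and day 5 the receptors differed most. At day 5, 8 genes were higher and 9 lower than at day 2, which is 27.4% of the 62, against 25.5% of all tested features. By direction the calls were 12.9% higher and 14.5% lower, against 12.8% and 12.7% of all features. The median change was -0.12, against -0.07 over all features. Klra17, Clec7a, Cd53 and Klra23, which had risen by day 2, were lower at day 5, and Klrc2 and Klrb1b, which had fallen, were higher. These comparisons share the day 2 samples, so such opposite signs are not independent of the day 2 values.

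Klra17 had log ratios of -0.70, -0.66 and -1.44 at day 5, against 0.82, 0.85, 0.64 and 1.29 at day 2. The change was -1.83 ± 0.19 (SE, limma adjusted p = 9.02e-06), a 3.56-fold difference. Clec7a, at 0.93, 1.01 and 1.37 at day 5 and 2.47 to 3.22 at day 2, changed by -1.69 ± 0.22 (adjusted p = 4.42e-05). Cd53 changed by -1.0 ± 0.24 (adjusted p = 0.0068), with day 5 replicate 3, at 2.19, just under the lowest day 2 sample, at 2.24. All 3 falls passed in all 25 alternatives. At the same time the neutrophil markers fell, 5 of 6 lower at day 5 than at day 2, with sample means of -1.15 to -0.60 at day 5 and 0.53 to 1.34 at day 2. Their part in these changes was not tested.

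Klra17, Clec7a and Cd53 were higher at day 2 than in untreated blood and lower at day 5 than at day 2. Klra23 was called with the same signs, and its promoter is not shown. Cd81 did not follow this course, so the promoters of Klra17, Clec7a, Cd53 and Cd81 are shown for comparison. Each window holds 250 bases before and 50 after the RefSeq gene start on GRCm38.p6, 5′ to 3′ on the gene's strand. Capitals mark matches on either strand to TTNNGNAA, a form of the C/EBP consensus of myeloid genes, or to GGGCGG, the GC box. The windows are chr6:129876623-129876922 on the minus strand for Klra17, chr6:129472730-129473029 on the minus strand for Clec7a, chr3:106790100-106790399 on the minus strand for Cd53 and chr7:143052500-143052799 on the plus strand for Cd81.
Klra17: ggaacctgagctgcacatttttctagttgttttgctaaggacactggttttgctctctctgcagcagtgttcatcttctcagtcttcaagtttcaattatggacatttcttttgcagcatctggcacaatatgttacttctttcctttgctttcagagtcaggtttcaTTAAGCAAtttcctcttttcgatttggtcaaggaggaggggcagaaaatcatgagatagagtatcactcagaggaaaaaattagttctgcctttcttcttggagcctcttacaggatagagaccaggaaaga
Clec7a: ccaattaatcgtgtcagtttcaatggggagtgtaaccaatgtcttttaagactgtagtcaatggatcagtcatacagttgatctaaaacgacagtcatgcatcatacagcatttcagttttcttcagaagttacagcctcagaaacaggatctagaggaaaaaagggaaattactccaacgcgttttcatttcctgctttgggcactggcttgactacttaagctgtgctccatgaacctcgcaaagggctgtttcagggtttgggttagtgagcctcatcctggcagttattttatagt
Cd53: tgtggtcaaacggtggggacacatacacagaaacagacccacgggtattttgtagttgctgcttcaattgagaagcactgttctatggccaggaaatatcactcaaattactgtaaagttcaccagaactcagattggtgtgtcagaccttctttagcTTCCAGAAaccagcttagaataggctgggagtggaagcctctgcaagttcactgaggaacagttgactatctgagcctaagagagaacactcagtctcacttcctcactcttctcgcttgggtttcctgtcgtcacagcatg
Cd81: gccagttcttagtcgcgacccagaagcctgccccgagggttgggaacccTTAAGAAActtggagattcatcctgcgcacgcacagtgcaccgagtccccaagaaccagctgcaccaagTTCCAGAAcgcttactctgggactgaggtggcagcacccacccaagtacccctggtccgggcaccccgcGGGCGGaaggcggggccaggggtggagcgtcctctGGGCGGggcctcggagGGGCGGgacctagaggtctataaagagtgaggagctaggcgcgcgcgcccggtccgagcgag
TTNNGNAA was found 1 time in the window of Klra17, 0 times in that of Clec7a, 1 time in that of Cd53 and 2 times in that of Cd81. GGGCGG was found 3 times for Cd81 and 0 times in the other windows. Of all 27025 RefSeq promoter windows of this length, 40.7% hold TTNNGNAA and 35.9% hold GGGCGG. The Cd81 window also held 23 CG pairs, against 1, 5 and 4 in those of Klra17, Clec7a and Cd53 and a median of 7 over all windows. Neither motif was present in all 3 windows of Klra17, Clec7a and Cd53.

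Among the other lower genes at day 5, Klrb1a had log ratios of -0.39, -0.49 and -0.16, against 0.19, 0.19, 0.25 and 0.29 at day 2. All day 5 samples were below 0, at a change of -0.58 ± 0.13 (adjusted p = 0.0045) that passed in all 25 alternatives. Clec2i changed by -0.50 ± 0.13 (adjusted p = 0.011) and lost its call without day 5 replicate 2 (-0.40, adjusted p = 0.058). Cd37 changed by -0.57 ± 0.18 (adjusted p = 0.03), with samples that overlapped. It lost its call without day 2 replicate 2 or 4 or day 5 replicate 1 or 2 (-0.57 to -0.34, adjusted p 0.05 to 0.18). The B cell markers Ms4a1 (-0.90, adjusted p = 0.013) and Fcmr (-0.79, adjusted p = 0.003) fell in this comparison too, and Blnk did not pass (-0.20, adjusted p = 0.72). The part of B cells in the Cd37 values was not tested. Klra23 changed by -0.48 ± 0.15 (adjusted p = 0.029) and lost its call without day 2 replicate 2 or 4 or any single day 5 sample (-0.51 to -0.41, adjusted p 0.054 to 0.094).

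The genes that were higher at day 5 than at day 2 included Clec12b, Klrc2, Klrb1b and Clec3b of the lectin families. Clec12b, an inhibitory lectin receptor of myeloid cells, had log ratios of 0.89, 1.10 and 0.53 at day 5 and -0.06, -0.25 and 0.05 at day 2. All day 5 samples were higher, at a change of 0.93 ± 0.20 (adjusted p = 0.0037) that passed in all 22 alternatives that could be run. Klrc2 had values of 0.42, 0.44 and 0.31 at day 5 against -0.25, -0.51, -0.01 and -0.29 at day 2, a change of 0.66 ± 0.12 (adjusted p = 0.0011). With technical replicate 2 alone it was 0.39 (adjusted p = 0.052). Klrb1b changed by 0.60 ± 0.20 (adjusted p = 0.04) and lost its call without day 2 replicate 1, 3 or 4 or day 5 replicate 1 (0.45 to 0.63, adjusted p 0.054 to 0.18). Clec3b, which encodes the secreted protein tetranectin, had values of 0.78, 0.47 and 0.34 at day 5 and 0.09, 0.10, 0.06 and 0.11 at day 2. Its change was 0.44 ± 0.12 (adjusted p = 0.013), lost without day 5 replicate 1 (0.32, adjusted p = 0.08).

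Of the other receptors higher at day 5, Cd93, a glycoprotein of myeloid and endothelial cells, had log ratios of 0.41, 0.91 and 0.27, against -0.18, 0.11, -0.00 and 0.12 at day 2. The change was 0.52 ± 0.14 (adjusted p = 0.014), lost without day 5 replicate 2 (0.33, adjusted p = 0.079). Cd163, the macrophage scavenger receptor for haptoglobin-bound haemoglobin, changed by 0.52 ± 0.18 (adjusted p = 0.044), with samples that overlapped, and 16 of 25 alternatives ended the call. Among them were those without untreated replicate 1 or 2, any single day 1 sample, day 2 replicate 1, 2 or 3, or day 5 replicate 1 or 2 (0.36 to 0.54, adjusted p 0.051 to 0.20). Fcer2a, the low-affinity IgE receptor CD23, changed by 0.49 ± 0.15 (adjusted p = 0.027) and lost its call without day 2 replicate 1 or 3 or day 5 replicate 1 or 2 (0.42 to 0.49, adjusted p 0.063 to 0.11). Of the tested monocyte markers 5 of 6 were also higher at day 5 than at day 2, as were 2 of 4 red cell markers. Alas2, the erythroid enzyme of haem synthesis, changed by 3.57 (adjusted p = 3.01e-05). The natural killer cell marker Nkg7 was lower at day 5 than at day 2 (-0.44 ± 0.14, adjusted p = 0.033). The other tested natural killer markers, Ncr1 (-0.27, adjusted p = 0.63) and Eomes (0.20, adjusted p = 0.46), did not pass. Klrc2 and Klrb1b were higher and Klrb1a lower. The B cell markers Ms4a1 and Fcmr were lower in this comparison, while Fcer2a was higher. The part of these cells in the receptor changes was not tested.

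**Figure D3:**
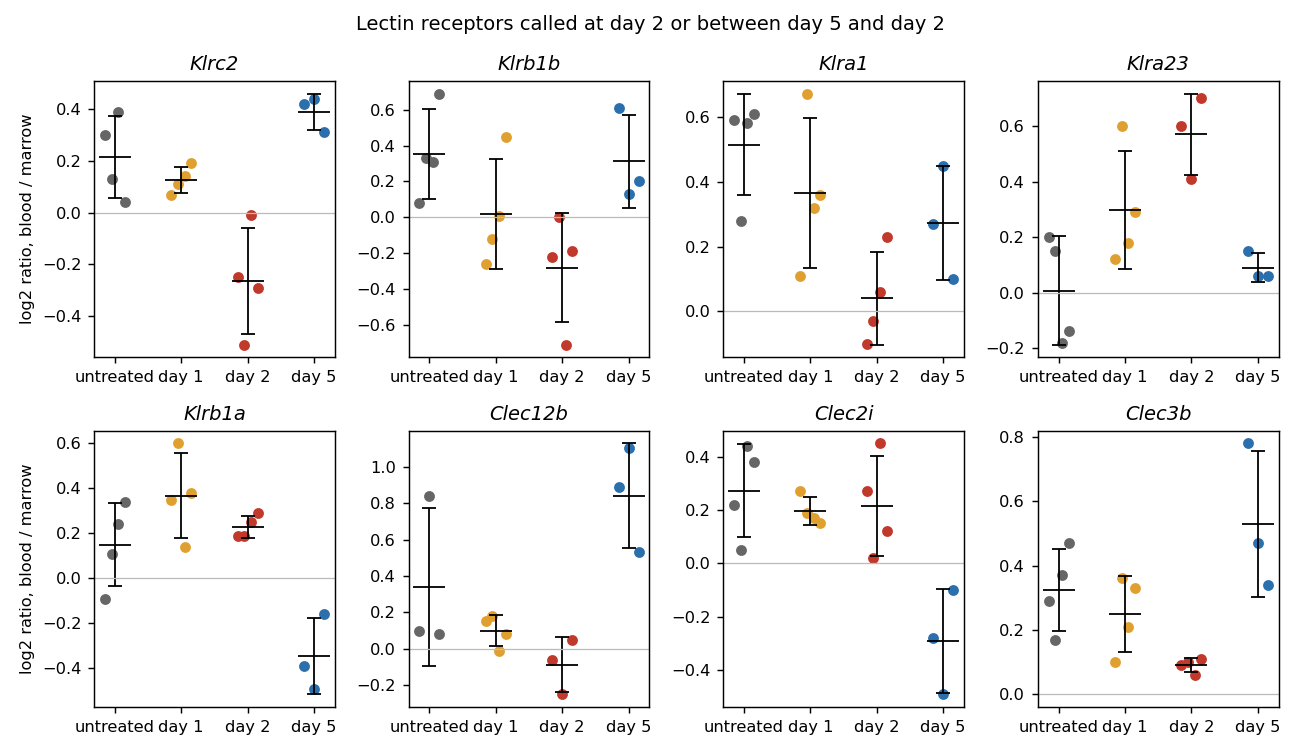
Log ratio of blood over marrow (log2) of 8 lectin genes in each blood sample of the untreated, day 1, day 2 and day 5 groups, with the mean ± SD. Klrc2, Klrb1b, Clec12b and Clec3b were higher at day 5 than at day 2, and Klra23, Klrb1a and Clec2i lower. Klra1 was called only against untreated at day 2, and its day 5 and day 2 samples overlapped.

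Day 2 and day 1 were told apart by 3 of the 62 genes (4.84%), against 1.15% of all features. Clec7a and Klra17 were higher at day 2 than at day 1 (0.86 ± 0.20, adjusted p = 0.049, and 0.81 ± 0.18, adjusted p = 0.042), and Cd81 was lower. None of these calls was stable, with 19, 16 and 14 of 25 alternatives ending those of Clec7a, Klra17 and Cd81. Each was lost without any single day 1 sample, without untreated replicate 1 or 3 and without day 2 replicate 2, among others, at sizes of 0.72 to 0.95, 0.68 to 0.89 and -1.32 to -0.93. Over all 4 groups 13 genes (21%) passed the F test, against 22.7% of all features.

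The calls were also counted by family, and differences between families were not tested. Over all features 12.7% were called at day 2 against untreated and 25.5% at day 5 against day 2. Of 10 tested killer cell lectin-like receptors, 2 were higher and 3 lower at day 2 against untreated, and 2 higher and 3 lower at day 5 against day 2. Their median changes were -0.12 and -0.00. Of 10 tested C-type lectin family genes, Clec7a was called at day 2, while at day 5 against day 2 Clec12b and Clec3b were higher and Clec2i and Clec7a lower. Their median changes were -0.09 and 0.18. Both tested genes of the tetraspanin list, Cd53 and Cd81, passed the F test. Cd37 and Cd63, which are tetraspanins too and were listed with the B cell and the myeloid antigens, did not.

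Neighbours in the natural killer gene complex did not all move in 1 direction. The 12 tested genes from Klrb1a to Klra2 on chromosome 6 that matched a RefSeq entry held 2 higher and 3 lower genes at day 2 against untreated. At day 5 against day 2 they held 3 higher and 4 lower. Over all features 12.7% and 25.5% were called in these comparisons. The tested Ly49 genes Klra16 and Klra23 are not in this order, and Klra23 was called in both comparisons (0.56 and -0.48). Of the 11 pairs of neighbours in this order, 6 had changes of the same sign at day 2 against untreated and 4 at day 5 against day 2, called or not. Klrb1a and Klrb1b, which lie next to each other in this order and are close relatives, had changes of -0.58 and 0.60 between day 5 and day 2. Clec12b and Clec7a, also adjacent, had changes of 0.93 and -1.69, and Klrc2 and Klra17 of 0.66 and -1.83. Of the 62 genes, 43 matched a RefSeq entry for their position, and 15 of these lie on chromosome 6.

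**Figure D4:**
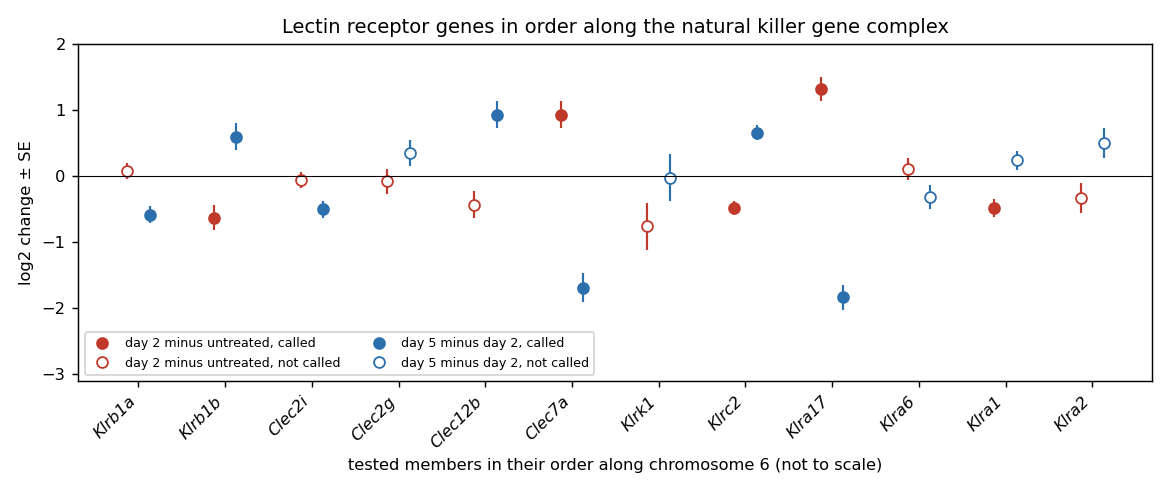
Change (log2 ± SE) of 12 tested lectin receptor genes of the natural killer gene complex that matched a RefSeq entry, in their order along chromosome 6, not to scale. For each gene the change of day 2 minus untreated stands beside that of day 5 minus day 2, and filled points passed the test. Klra17 and Clec7a were high in the first and low in the second, while Klrc2 and Klrb1b went the other way.

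None of the 6 tested integrin chains kept by the choice of genes gave a call. The chains Itga2b and Itgb1 are among the genes left out by name, and both were higher at day 1 than in untreated blood. Itga2b, the platelet chain counted above with the platelet markers, changed by 1.37 ± 0.26 (limma adjusted p = 0.013), lost with quantile normalization and without day 1 replicate 2 (2 of 24 alternatives, 0.58 to 1.64 over all of them). Itgb1, the beta chain shared by many integrins, changed by 0.95 ± 0.24 (adjusted p = 0.037) and lost its call in 11 of 24 alternatives (0.48 to 1.06), among them those without day 1 replicate 1, 2 or 4 or any single untreated sample. Of the 18 other integrin chain genes on the array, 6 had enough values (Itga8, Itgae, Itgal, Itgav, Itgb2l and Itgb7), and 0 passed limma's test in any of the 5 comparisons or in the F test. Over all tested features 1.09% to 25.5% were called by comparison and 22.7% in the F test, so 6 genes are too few to set integrin chains apart. At an unadjusted p under 0.05 there was 1 among the pairwise tests, Itgal at day 5 against untreated, where 1134 of all 6515 features were. Itgal, the alpha chain of LFA-1 by which leukocytes bind ICAMs, had log ratios of -0.49, -0.26 and -0.23 at day 5 and 0.06, -0.27, 0.60 and 1.09 in untreated samples. The untreated samples themselves spread over more than the change of -0.70 ± 0.26 (adjusted p = 0.21). Itgb7, a chain of the gut homing integrins, had values of -0.21, 1.89 and 1.07 at day 1 and -0.13, -0.14 and 0.68 in untreated samples, and a change of 0.78 ± 0.45 (adjusted p = 0.35). Itgam, Itgax, Itga3, Itga7, Itgb4 and Itgb6 had no value in any sample.

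Itga6, an integrin chain that binds laminin and is known from platelets, missed the filter because only 2 day 2 samples had a value. Its log ratios were 0.51, -0.40 and 1.10 in 3 samples of untreated mice and 2.10, 3.68, 1.74 and 2.45 in those of day 1. They were 1.84 and 0.84 in those of day 2 and 0.06, -0.56 and 0.02 in those of day 5. All day 1 samples were above all untreated ones. With no filter on missing values its day 1 change was 2.09 (limma adjusted p = 0.036). The platelet markers rose in the same day 1 samples, and their part in this value was not tested.

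Selplg, the selectin ligand PSGL-1, was the only tested gene of the selectin family and had log ratios of 1.13, 0.61 and 1.32 at day 2 and 0.40, 0.19 and 0.79 in untreated samples. The groups overlapped, and the change of 0.56 ± 0.21 did not pass (adjusted p = 0.10), except without day 2 replicate 3 (0.77, adjusted p = 0.034). Of 10 tested T cell and costimulation antigens, 0 passed limma's test in a pairwise comparison, where 1.09% to 25.5% of all features did. At an unadjusted p under 0.05 there were 2 at day 1 and 2 at day 2, against 1376 and 1740 of all 6515 features. Cd28, the costimulatory receptor of T cells, had 1.68, 2.15, 1.54 and 2.28 at day 1 and 1.19, 0.36, 1.89 and 1.49 in untreated samples, a change of 0.68 ± 0.42 (adjusted p = 0.38). At day 2 its samples ran from 0.16 to 2.05, wider than any difference between its group means. Cd84, a SLAM family receptor, was higher in all 4 samples at day 1 than in all untreated ones, but its change of 0.71 ± 0.22 did not pass (adjusted p = 0.071).

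**Figure D5:**
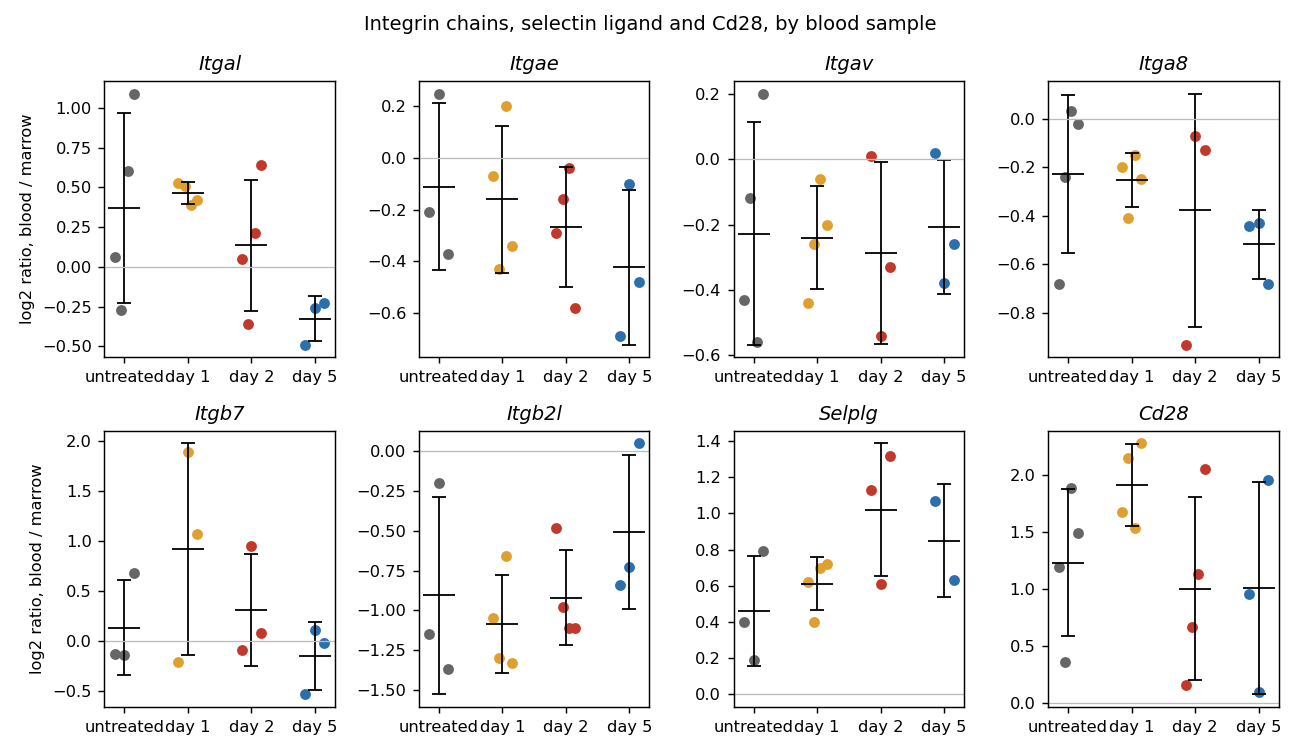
Log ratio of blood over marrow (log2) of the 6 tested integrin chains, Selplg and Cd28 in each blood sample of the untreated, day 1, day 2 and day 5 groups, with the mean ± SD. None of the 8 genes passed a test. Day 5 samples of Itgal lay at or below -0.23, while untreated samples ran from -0.27 to 1.09.

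The choice by symbol also took in 9 tested genes that only share letters with these families. Selenon, a selenoprotein of the endoplasmic reticulum, had log ratios of -0.72, 0.57 and -0.16 at day 5 and 0.37, 1.16, 1.48 and 2.03 at day 2, a change of -1.36 ± 0.33 (adjusted p = 0.0066). Selenoo changed by -0.49 ± 0.12 (adjusted p = 0.0084), lost only in the fit of the 2 groups alone (adjusted p = 0.068). Itgb1bp2, the muscle protein melusin that binds an integrin tail, had values of 0.66, 1.09 and 1.01 at day 5 and 0.43, 0.26 and 0.55 at day 2. Its change was 0.51 ± 0.16 (adjusted p = 0.027), and it was 0.19 with technical replicate 1 alone (adjusted p = 0.44). It was also lost without day 2 replicate 2 or 3 or day 5 replicate 2 or 3 (0.42 to 0.51, adjusted p 0.05 to 0.1). Without these 9 genes, 14 surface receptors and lectins were called between day 5 and day 2. With them it was 17 of 62 (27.4%), near the 25.5% of all tested features.

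Genes that act with the receptors were counted beside them. Of 11 tested genes of integrin activation and integrin ligands, Zyx, a focal adhesion protein, was higher at day 1 (1.19 ± 0.22, adjusted p = 0.013) and at day 2 (0.95 ± 0.22, adjusted p = 0.011). Vcl, which links integrins to actin, was higher at day 5 (0.98 ± 0.21, adjusted p = 0.037). Fyb, an adaptor of integrin activation, and Icam2, an LFA-1 ligand, were lower at day 5 than at day 2 (-1.28 ± 0.37, adjusted p = 0.018, and -0.54 ± 0.13, adjusted p = 0.0058). Of 12 tested signalling adaptors and kinases, Syk, the kinase used by dectin-1, was higher at day 2 than in untreated blood (0.75 ± 0.15, adjusted p = 0.004). It was lower at day 5 than at day 2 (-1.02 ± 0.16, adjusted p = 2.99e-04). Lat2, an adaptor of B cells and myeloid cells, was lower than in untreated blood at day 1 (-0.64), day 2 (-1.05) and day 5 (-0.71), with adjusted p of 0.029, 2.57e-04 and 0.048. No other gene of these lists was called in a pairwise comparison. Of all features 4.6%, 12.7% and 1.09% were called against untreated at days 1, 2 and 5. The share was 25.5% at day 5 against day 2. The part of the blood cell types in these values, and any link of Syk with Clec7a, was not tested.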

How the data were processed

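Amplified RNA of each blood sample (Cy5) and of a marrow reference (Cy3) was hybridised to 2-colour arrays, per the labels' protocols. The deposited table holds log ratios made by the authors, taken here as log2, with 13443 probes in 30 columns and 5314 to 9398 values a column. The sources used here give neither the log base nor the background correction, the normalization or the reason for empty cells. Column medians lay between -0.0028 and 0.025, so the columns are centred near 0. Blood was labelled with Cy5 throughout, so differences between groups hold no dye effect that is constant.

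Technical replicates (r 0.829 to 0.957, 0 identical values, 2 a sample) were averaged, then probes of 1 symbol, which gave 15 independently harvested blood samples and 13027 features. The labels call these biological replicates, and how many mice stand behind each is not given. If they came from fewer animals than samples, p-values measure only the spread between samples. Probes were named through the platform annotation, in which 10032 probes had 1 symbol, 170 several and 3241 none. Tested were the 6515 features with at least 2 values at day 5 and 3 in each of the other groups. Samples without a value for a gene are left out of its fit. limma 3.58.1 in R 4.3.3 fitted 1 mean per group over all 15 samples (lmFit, eBayes), and p-values were adjusted by Benjamini-Hochberg over all tested features. The call threshold was an adjusted p of 0.05. The procedure was checked on simulated data. The number of arrays limits the precision.

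The genes and lists were chosen with earlier results of these data known. Named genes were those called in a comparison, at most 12 in each direction, the gene with the smallest F test p of each of 13 role lists, the 3 highest and 3 lowest in untreated blood, and genes with opposite signs at day 2 and day 5. Itga6, Itga2b, Itgb1, Cd28, Cd84, Klrk1, Cd63, Nkg7, Ncr1, Eomes, Fcmr, Ms4a1, Blnk and Klra16 fall outside this rule. So do the genes called in a single alternative, and all were named after their values were seen. Tried were 25 alternatives: quantile normalization, no filter, complete features, each technical replicate alone, a replicate block, fits of the compared groups alone, a robust trended prior, each probe on its own, leaving out each of 15 samples, and, chosen after seeing the data, leaving out the least alike sample of each group. Promoter sequences are RefSeq's (GRCm38.p6).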

Additional observations from a re-analysis of the deposited data

Results flagged for a closer look

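In 3 of 73 groups of 4 samples, of the named genes, 1 sample lay far from the other 3, where chance gives about 1 in 20. Itgb1bp2 was at 0.81 in untreated replicate 3, against 0.30 to 0.36 in the other untreated samples. Klra1 was at 0.28 in untreated replicate 2, against 0.58 to 0.61. Klra17 was at 0.34 in day 1 replicate 1, against 0.00 to 0.02 in the other day 1 samples.

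The changes against untreated differed between time points for 17 genes at day 5 against day 2, by limma's test of the difference (adjusted p under 0.05). They were positive for Cd163 (0.52), Cd93 (0.52), Clec12b (0.93), Clec3b (0.44), Fcer2a (0.49), Itgb1bp2 (0.51), Klrb1b (0.60) and Klrc2 (0.66). They were negative for Cd37 (-0.57), Cd53 (-1.0), Clec2i (-0.50), Clec7a (-1.69), Klra17 (-1.83), Klra23 (-0.48), Klrb1a (-0.58), Selenon (-1.36) and Selenoo (-0.49). Between day 2 and day 1 the same test gave Cd81 (-1.17), Clec7a (0.86) and Klra17 (0.81), none of which was kept in every alternative.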

How the results depend on the processing

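No named call changed sign in any alternative. Of 29 named calls 8 were kept in every alternative: Cd81 at day 1, Klra17 at day 2, and Cd53, Clec12b, Clec7a, Klra17, Klrb1a and Selenon at day 5 against day 2. With each sample left out in turn, the number of genes called ran from 1 to 4 at day 1, from 4 to 10 at day 2, from 0 to 4 at day 5, from 0 to 3 between day 2 and day 1, from 11 to 20 between day 5 and day 2, and from 9 to 19 in the F test. Counts over all 6515 features moved too. They ran from 60 to 438 at day 1, from 529 to 942 at day 2 and from 27 to 224 at day 5. Between day 2 and day 1 they ran from 3 to 94, and between day 5 and day 2 from 1196 to 1856. At day 1 there were 2 calls with no filter or a robust trended prior, 6 in the fit of the compared groups alone and 5 without the least alike sample of each group. Over all features these fits called 163 of 8965, then 327, 578 and 383 of 6515, in that order, against 300 in the fit of all samples. At day 2 there were 5 with technical replicate 2 alone or without the least alike samples, where 719 of 5860 and 560 of 6515 features were called. At day 5 there were 3 with quantile normalization and 1 with complete features, technical replicate 1 alone or a robust trended prior. Over all features these called 111 of 6515, 116 of 4920, 81 of 5932 and 69 of 6515. Between day 2 and day 1, 0 passed limma with no filter, technical replicate 2 alone, the replicate block, the compared groups alone or the least alike samples left out, where 3 had passed and 10 had an unadjusted p under 0.05. Over all features these fits called 25 of 8931, 57 of 5860, and 31, 5 and 4 of 6515, against 75 in the fit of all samples. Between day 5 and day 2 there were 10 with technical replicate 2 alone and 7 with the compared groups alone, and 6 passed the F test with technical replicate 2 alone. Over all features the first 2 fits called 1466 of 5860 and 935 of 6515, against 1664 in the fit of all samples. The causes were not tested. Same-numbered samples did not visibly deviate together (21 pairs, r from -0.28 to 0.17, against -0.36 to 0.40 in 63 pairs with different numbers). With 3 or 4 samples a group, this cannot exclude that the numbers pair the samples. The replicate block gave 1, 8 and 0 calls at days 1, 2 and 5, 0 between day 2 and day 1, 16 between day 5 and day 2 and 10 in the F test. Of all 6515 features it called 131, 685, 49, 31 and 1492 in these 5 comparisons. Clec12b, Klra23, Itgb1bp2 and Cd209b lack values in some samples and drop out of the fit of complete features.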

Other observations

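Of the 75 genes with too few values, 26 had values in 1 to 4 samples and 25 in 5 or more. Among the 25 was Clec1b, a lectin receptor of platelets, with log ratios of 0.49, 0.96 and 1.89 in 3 day 1 samples and 0.01, 0.45, 0.38 and 1.23 in the untreated samples, which overlap. Lilr4b, an immunoglobulin-like receptor, had 2.01, 0.63 and 1.78 in 3 day 2 samples and 1.24 and 1.28 in 2 untreated samples. Clec4f, a lectin of Kupffer cells, had 0.94, 1.14 and 0.61 at day 5 and 0.33, 0.37 and 0.46 in 3 untreated samples, without overlap. Cd244a, a receptor of natural killer cells, had -0.73 and -0.37 in 2 day 2 samples and 0.04, -0.01, 0.22 and 0.04 in the untreated samples. With no filter on missing values its change was -0.62 at day 2 (limma adjusted p = 0.037) and 0.76 at day 5 against day 2 (adjusted p = 0.0091). These genes were picked after their values were seen and carry no other test.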
